A study of Mus musculus with 18 samples.

Results

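The genes described here are 10 mouse genes of cytotoxic effector cells and natural killer cells, out of 19938 genes tested on the array. They are the granule genes Gzma, Gzmb, Nkg7, Ctsw and Prf1, the signalling adaptor genes Fcer1g and Tyrobp, and the receptor genes Klrd1, Cd160 and Cd244a. The 10 were chosen with earlier results of these data known. Each was found by name, as the probe set whose annotated symbol is exactly that of the gene, and each had a single probe set. All 10 lay above the background level of 4.23 on all 6 arrays, on the log2 scale of the deposited values.

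Expression was measured on 1-colour microarrays in cells of small intestinal crypts, sorted on FVR, a Venus reporter of Flattop, a gene linked to planar cell polarity. The gates were FVR high, FVR low and FVR negative, with 2 arrays each. Every gate, the negative one included, came from 4-month-old C57Bl6/J mice of the genotype FltpZV/+, and each array held RNA of a pool of 2 animals. The reporter reads the activity of 1 gene and not a lineage, and the labels do not say whether gates with the same replicate number came from the same animals, so p-values measure only the spread between these arrays. The comparisons ask which transcripts accompany low and high reporter signal.

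Cytotoxic T cells and natural killer cells kill target cells by releasing granules that hold perforin, which opens the target's membrane, and granzymes, proteases that enter through it. Activating receptors of these cells signal through short adaptor proteins that carry tyrosine-based motifs, while inhibitory receptors read class I molecules on the target. In the small intestine, intraepithelial lymphocytes, most of them CD8+ T cells, lie between epithelial cells and hold granzymes at rest.

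By their median, the 10 genes were brightest in low cells and dimmest in high cells, with negative cells between them. The median of their gate means was 6.11 in high cells, 10.30 in low cells and 7.83 in negative cells. This order, low above negative above high, held for 8 of the 10 genes. Prf1, the perforin gene, and Cd244a, the gene of the receptor 2B4, had other orders and are described with their groups below. In a bulk sample, fewer cells of a type and less RNA per cell cannot be told apart.

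**Figure D1:**
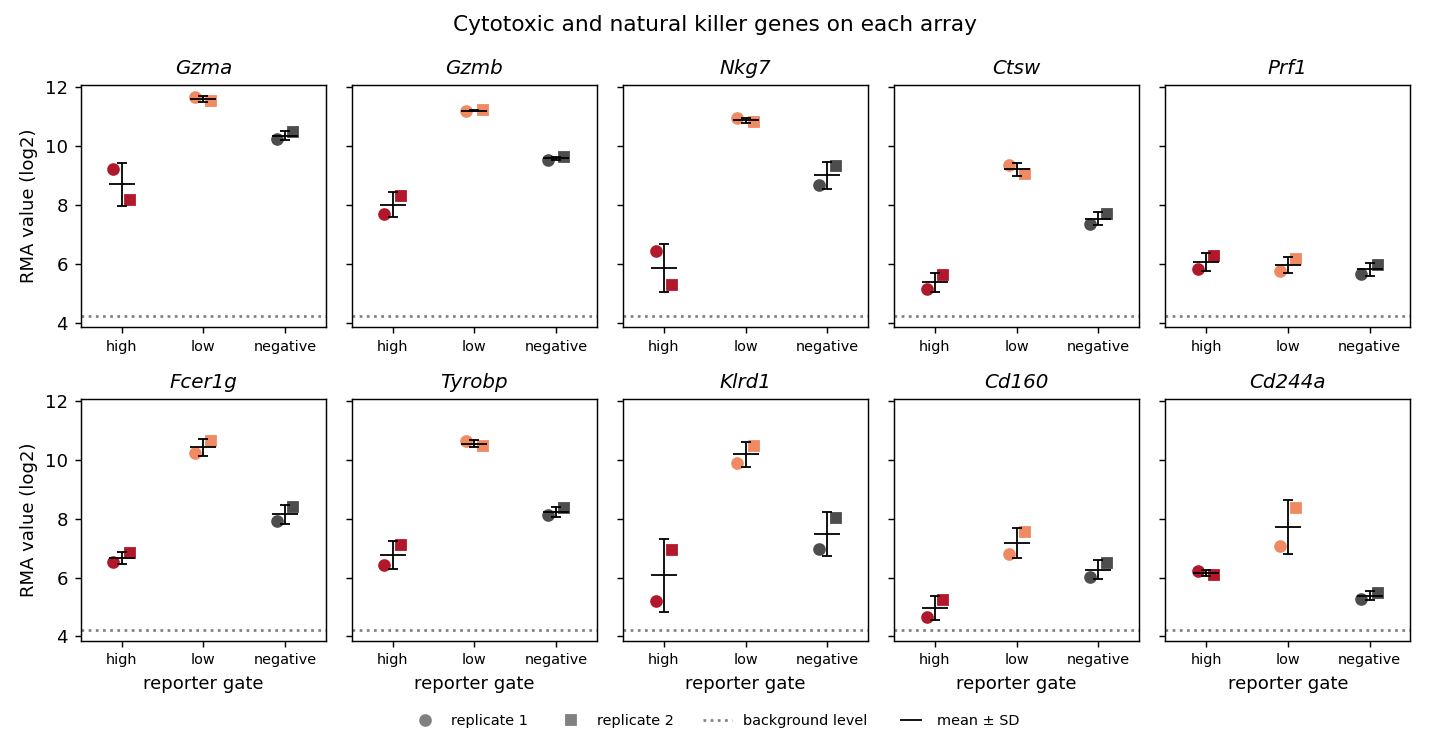
Log2 value (y axis) of each of the 10 genes on each of the 6 arrays, by FVR gate, with points for arrays, bars for the mean ± SD of 2 arrays and a dotted line for the background level. In 8 panels the low arrays lie on top, the negative arrays between and the high arrays at the bottom. The 6 Prf1 values lie between 5.66 and 6.28, and the high arrays of Cd244a lie above the negative ones.

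Of the 10 genes, 8 were called lower in high than in low cells by limma at an adjusted p under 0.05, against 3.89% of all genes called lower and 4.91% called either way. The 8 are all but Prf1 and Cd244a. The high and low arrays of 9 genes did not overlap, against 55.8% of all genes. The median difference was -3.47, against 0.13 over all genes tested. With quantile normalization, 326 genes were called higher and 616 lower in high cells, against 202 and 776 with the deposited values, and 8 of the 10 genes were called lower under both. Without low replicate 2 the count was 6, with Cd160 and Klrd1 lost. Without low replicate 1 it was 8, with Klrd1 lost and Cd244a gained.

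The arrays were alike in scale, with medians over all probe sets from 4.54 to 4.74. Pearson's r across genes, which are not independent replicates, was 0.946 between the high arrays, 0.975 between the low arrays and 0.981 between the negative arrays. Between gates it ran from 0.902 to 0.938, the highest between high replicate 1 and negative replicate 1, close to that of the high pair. The fit pools the spread over the gates, so the wider spread of the high arrays also enters the SE of low minus negative. On high replicate 2, 69.6% of genes lay above background, against 61.4% to 65.6% on the other 5 arrays. All 8 epithelial genes of the marker list were above background on every array, as were all 8 pan-leukocyte genes. These counts stand beside the shares of all genes just given, and leukocyte content was not tested. With 2 arrays a gate, their number limits the precision.

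Among the granule genes, Prf1 stood apart from Gzma, Gzmb, Nkg7 and Ctsw, which were brightest in low cells. Gzma, which encodes granzyme A, a serine protease, had log2 values of 9.22 and 8.18 in high cells, 11.67 and 11.53 in low cells and 10.23 and 10.45 in negative cells. Gzmb, the gene of granzyme B, which cleaves after aspartate and starts apoptosis, had 7.70 and 8.31 in high cells, 11.18 and 11.22 in low cells and 9.53 and 9.62 in negative cells. In both genes the arrays of the 3 gates lay fully apart, and the high pair was the most spread, by 1.04 for Gzma and 0.60 for Gzmb.

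Gzmb was lower in high than in low cells by 9.13-fold, at a log2 difference of -3.19 ± 0.24 (SE, n = 2 arrays each; limma adjusted p = 0.00118). Gzma was lower by 7.45-fold, at -2.90 ± 0.34 (limma adjusted p = 0.00599). Both calls held whichever array was left out.

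Nkg7, the gene of a membrane protein of cytotoxic granules, had the widest gap of the 10 between high and low cells. Its log2 values were 6.43 and 5.27 in high cells, 10.93 and 10.81 in low cells and 8.69 and 9.33 in negative cells. Ctsw, which encodes cathepsin W, a cysteine protease of cytotoxic cells, had 5.15 and 5.60 in high cells, 9.37 and 9.03 in low cells and 7.37 and 7.69 in negative cells. The gates lay apart in both genes. High minus low was -5.02 ± 0.40 for Nkg7, a 32.5-fold lower level (limma adjusted p = 0.00146). For Ctsw it was -3.82 ± 0.25, a 14.2-fold lower level (limma adjusted p = 0.000713), and both calls held without any single array.

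Prf1 did not follow the other granule genes. It had log2 values of 5.84 and 6.28 in high cells, 5.76 and 6.15 in low cells and 5.66 and 5.96 in negative cells, so every pair of gates overlapped. In each gate replicate 2 lay above replicate 1. Within each replicate number the high array lay above the low one and the low array above the negative one. High minus low was 0.11 ± 0.25, with a 95% interval from -0.48 to 0.69 (limma adjusted p = 0.803). High minus negative was 0.25 ± 0.25, with an interval from -0.34 to 0.84 (limma adjusted p = 0.572). Low minus negative was 0.14 ± 0.25, with an interval from -0.45 to 0.73 (limma adjusted p = 0.887). These intervals lie within 1 log2 unit of no difference and do not reach the differences of Gzma, Gzmb, Nkg7 and Ctsw in any comparison. The sign of its high minus low and low minus negative differences turned with some single arrays left out. The difference between Prf1 and the other members was not tested as such, and Prf1 was read by 1 probe set.

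The promoter windows of 4 granule genes are printed here because Prf1 departs from the other 3 in its values, and the letters can be read beside one another. Each holds 300 bases, from 250 before to 50 after the start site, read 5′ to 3′ on the gene's strand, from RefSeq on GRCm38.p6. The start sites used for Gzma, Gzmb and Nkg7 are their annotated gene starts. The annotated gene start of Prf1, at 61297751, lies inside its window and before the start site used there, so its window is placed differently. Capitals mark matches, on either strand, to TGTGGT (Runx), GGTGTGA (T-box), GGAAGT (ETS) and TGANTCA (AP-1). The windows are chr13:113100932-113101231 on the minus strand for Gzma, chr14:56262285-56262584 on the minus strand for Gzmb, chr7:43436888-43437187 on the plus strand for Nkg7 and chr10:61297586-61297885 on the plus strand for Prf1.
Gzma: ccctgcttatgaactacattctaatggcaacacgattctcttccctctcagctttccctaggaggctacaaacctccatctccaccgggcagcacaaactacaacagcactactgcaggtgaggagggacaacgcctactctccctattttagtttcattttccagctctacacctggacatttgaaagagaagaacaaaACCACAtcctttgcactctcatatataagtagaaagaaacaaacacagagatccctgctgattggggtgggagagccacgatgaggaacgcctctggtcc
Gzmb: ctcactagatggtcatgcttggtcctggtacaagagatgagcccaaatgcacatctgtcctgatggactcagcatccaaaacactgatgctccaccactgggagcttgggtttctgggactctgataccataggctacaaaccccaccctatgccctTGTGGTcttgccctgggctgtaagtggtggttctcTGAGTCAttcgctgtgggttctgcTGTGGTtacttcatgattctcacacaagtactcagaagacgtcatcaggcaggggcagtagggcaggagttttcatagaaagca
Nkg7: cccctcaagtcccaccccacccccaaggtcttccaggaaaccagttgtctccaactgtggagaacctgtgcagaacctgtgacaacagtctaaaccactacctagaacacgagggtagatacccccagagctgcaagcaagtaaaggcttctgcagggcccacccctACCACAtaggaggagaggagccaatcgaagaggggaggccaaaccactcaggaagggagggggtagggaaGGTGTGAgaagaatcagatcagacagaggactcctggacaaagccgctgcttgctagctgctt
Prf1: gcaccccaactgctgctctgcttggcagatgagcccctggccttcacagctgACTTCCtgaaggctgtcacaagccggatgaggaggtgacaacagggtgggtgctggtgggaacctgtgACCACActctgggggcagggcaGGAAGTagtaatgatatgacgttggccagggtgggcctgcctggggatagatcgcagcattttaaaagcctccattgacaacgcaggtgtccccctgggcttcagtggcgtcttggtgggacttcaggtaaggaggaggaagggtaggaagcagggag

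All 4 windows hold the Runx letters, 2 times in Gzmb, against 16.8% of the 32851 promoter windows of the same length. The T-box letters stand in Nkg7, against 3.98% of all windows, and the AP-1 letters in Gzmb, against 7.81%. Prf1 holds the ETS letters at 2 places, against 23.8% of all windows. Of the 10 genes, 7 had an entry, and the Runx letters stood in 6 of these, with Cd244a as the exception. The T-box, ETS and AP-1 letters each stood in 2 of the 7. A window of Cd160, which kept the common gate order, holds both the ETS and the T-box letters, so the ETS letters are not particular to Prf1. A match is only a match of letters, and the windows were not measured here.

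Of the 20 other granule genes on the list, 4 were called lower in high than in low cells and none higher, with 2 higher at an unadjusted p under 0.05, and the median high minus low difference was -0.32. Their count was 2 without low replicate 2 and otherwise 3 to 5. Srgn, the gene of serglycin, the proteoglycan that packs granules, fell by 2.98 ± 0.23, and Fasl, the gene of the death ligand, fell by 2.78 ± 0.24 (limma adjusted p = 0.00132 and 0.00189). Both calls held without any single array. Here and below, genes of a list were named mainly by their calls in low minus negative, which shares the low arrays with high minus low. The other called granule genes were Cst7, at -3.34 ± 0.41, and Gzmk, at -1.62 ± 0.25 (limma adjusted p = 0.00755 and 0.0163). The Cst7 call was lost without low replicate 2 and the Gzmk call without either low array. The granule list also holds genes that many secretory cells use, such as Lamp1 and Ctsc.

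The 2 adaptor genes ran in the same order of gates. Fcer1g, which encodes the common gamma chain of Fc receptors, had log2 values of 6.53 and 6.82 in high cells, 10.21 and 10.62 in low cells and 7.91 and 8.38 in negative cells. Tyrobp, the gene of DAP12, the adaptor of activating natural killer and myeloid receptors, had 6.43 and 7.11 in high cells, 10.62 and 10.45 in low cells and 8.11 and 8.35 in negative cells. The 3 gates lay apart in both. High minus low was -3.74 ± 0.25 for Fcer1g and -3.77 ± 0.27 for Tyrobp, 13.4-fold and 13.6-fold lower (limma adjusted p = 0.000805 and 0.000953). Both calls held whichever array was left out.

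Myeloid cells also use both adaptors, so the markers of monocytes, macrophages and dendritic cells are given beside them. Of 14 measured markers, 6 were not above background on average, among them Csf1r and Adgre1, which define macrophages. The summed linear level of the list was 817 and 764 in high cells, 828 and 1159 in low cells and 513 and 455 in negative cells with Lyz2 included. Without Lyz2, an alternative chosen after seeing the data, it was 311 and 368 in high cells, 399 and 490 in low cells and 297 and 304 in negative cells. The gates kept their order in both sums, high between low and negative, with smaller gaps without Lyz2. Between high and low cells, 2 of the 14 were called lower in high cells, Itgax (-1.99 ± 0.25) and C1qa (-1.09 ± 0.19). In low against negative cells 4 were called higher, Itgax, C1qa, C1qb and Lyz2, by 1.88, 1.32, 1.11 and 1.57, and the Lyz2 probes may also read its near copy Lyz1, a Paneth cell gene. In high minus low the C1qa call was lost without any single array other than high replicate 1, and the Itgax call without low replicate 2 (limma adjusted p from 0.0562 to 0.146). In low minus negative none of the 4 stayed called without negative replicate 1 or without low replicate 2, Itgax alone without negative replicate 2, and Itgax and Lyz2 without low replicate 1. In high minus negative limma called 0 of the 14, with 2 higher at an unadjusted p under 0.05. The part of myeloid cells in the adaptor values was not tested.

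Of the 13 other receptor adaptor and kinase genes measured, 6 were called lower in high than in low cells, with a median difference of -1.28, and none higher. The count was 2 without low replicate 2 and 5 or 6 without any other array. Lcp2, the gene of the scaffold SLP-76, fell by 3.11 ± 0.24 (limma adjusted p = 0.00136), a call that held without any single array. Sh2d1b1, the gene of EAT-2, an adaptor of receptors of the 2B4 family, fell by 2.53 ± 0.34 (limma adjusted p = 0.0105), and its call was lost without low replicate 1 or low replicate 2 (adjusted p = 0.0697 and 0.0540).

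The 3 receptor genes differed more among themselves than the adaptor genes did, and the low arrays of each lay farther apart than those of either adaptor gene. Klrd1, the gene of CD94, which pairs with NKG2 chains to read a class I molecule, had log2 values of 5.19 and 6.95 in high cells, 9.88 and 10.48 in low cells and 6.95 and 8.0 in negative cells. The brighter high array and the dimmer negative array nearly met, and the low arrays stood above all others. High minus low was -4.11 ± 0.60, 17.3-fold lower (limma adjusted p = 0.0137). That call was lost without low replicate 1 (adjusted p = 0.0563) and without low replicate 2 (adjusted p = 0.0816).

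Cd160, a receptor gene of intraepithelial lymphocytes and natural killer cells, had log2 values of 4.67 and 5.24 in high cells, 6.81 and 7.54 in low cells and 6.03 and 6.49 in negative cells. The gates lay apart, and the step between low and negative arrays was the smallest of the 3 steps. High minus low was -2.22 ± 0.33, 4.67-fold lower (limma adjusted p = 0.0140), lost without low replicate 2 (adjusted p = 0.0714).

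Cd244a followed another order, with low cells highest and negative cells lowest. It had log2 values of 6.24 and 6.08 in high cells, 7.08 and 8.36 in low cells and 5.27 and 5.48 in negative cells. The 3 gates lay apart, and the low arrays were 1.28 apart. High minus low was -1.56 ± 0.39 and missed the threshold (limma adjusted p = 0.0795), although it passed without low replicate 1 (adjusted p = 0.0186). High minus negative was 0.78 ± 0.39, with a 95% interval from -0.15 to 1.72 (limma adjusted p = 0.296), so the step that sets its order apart was not called.

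The Cd244a window is shown because the gene departed in gate order and its window lacked the Runx letters. Prf1 also departed in gate order, and its window holds those letters. The annotated start of Cd244a, at 171558718, lies before the window, and other stretches were not searched. The window lies at chr1:171558943-171559242 on the plus strand and its capitals mark the AP-1 letters.
Cd244a: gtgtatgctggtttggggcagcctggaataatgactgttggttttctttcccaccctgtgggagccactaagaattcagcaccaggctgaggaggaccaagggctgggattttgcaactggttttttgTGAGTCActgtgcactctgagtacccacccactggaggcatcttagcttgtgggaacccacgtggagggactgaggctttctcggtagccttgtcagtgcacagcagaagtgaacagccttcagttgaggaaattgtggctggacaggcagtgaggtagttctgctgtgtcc

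Genes of other natural killer receptors were mostly dim. Of the 23 measured, 8 were above background on no array, among them Klrk1, the gene of NKG2D, and Ncr1, the gene of NKp46, which defines natural killer cells. Cd226, Cd96, Tigit, Crtam, Slamf7 and Cd48, which T cells also use, were above it on all 6. Klrc1, Klrb1c and Klra3 were above it on low replicate 2 alone, at 5.50, 5.76 and 5.12, and were picked out with their values known. The other low array gave 4.19 for Klrc1, 3.63 for Klrb1c and 3.76 for Klra3.

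Of these 23 receptor genes, 7 were called lower in high than in low cells and none higher, with a median difference of -0.61. The count was 2 without either negative array and 3 without low replicate 2, and 5 to 6 without any other array. Cd96, a receptor for nectin-like ligands, had 5.95 and 5.28 in high cells, 9.23 and 8.83 in low cells and 7.16 and 7.54 in negative cells. It fell by 3.41 ± 0.29 (limma adjusted p = 0.00182), which held without any single array. Tigit, an inhibitory receptor for the same ligands, differed by -2.02 ± 0.31, and Fcgr3, an Fc receptor gene, by -1.01 ± 0.20. Klre1 was not above background in high cells and fell by 0.59 or more. The calls of Tigit, Fcgr3 and Klre1 were lost without either negative array and without low replicate 1 (limma adjusted p from 0.0526 to 0.122). The Fcgr3 and Klre1 calls were also lost without low replicate 2, and the Fcgr3 call without high replicate 2 (limma adjusted p from 0.0890 to 0.201). Probes of receptor and granzyme families can bind close relatives, and this was not tested.

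Between high and negative cells, 6 of the 10 genes were called lower in high cells, against 3.35% of all genes called lower and 4.71% called either way. Nkg7 fell by 3.16 ± 0.40, 8.93-fold, and Ctsw fell by 2.15 ± 0.25, 4.45-fold (limma adjusted p = 0.0161 and 0.0121). Gzma, Gzmb, Fcer1g and Tyrobp differed by -1.64 ± 0.34, -1.57 ± 0.24, -1.47 ± 0.25 and -1.46 ± 0.27 (limma adjusted p from 0.0211 to 0.0447). Cd160 and Klrd1 differed by -1.31 ± 0.33 and -1.41 ± 0.60 and were not called (limma adjusted p = 0.0771 and 0.230). The arrays of 9 genes did not overlap, against 55.2% of all genes, and of these Cd244a alone ran higher in high cells.

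These calls against negative cells rested on both negative arrays. Without negative replicate 1 or without negative replicate 2 none of the 10 was called (limma adjusted p of the 6 from 0.0993 to 0.237), and over all genes 0.0752% and 0.0652% were. The calls of Gzma and Tyrobp were lost without either low array, Fcer1g without either high array and Gzma without high replicate 2 (limma adjusted p from 0.0503 to 0.0804). The count was 2 with quantile normalization, which left Nkg7 and Ctsw, and there 324 genes were called higher and 297 lower, against 272 and 667. The direction of the 6 differences could not turn with 1 array left out, since their arrays did not overlap. It held in the other fits too, most of which leave the difference itself unchanged.

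Between low and negative cells, 6 of the 10 genes were called higher in low cells, against 3.42% of all genes called higher and 5.96% called either way. This comparison and the one of high with negative cells share the negative arrays. Tyrobp was 4.95-fold higher, at 2.31 ± 0.27, and Fcer1g 4.83-fold, at 2.27 ± 0.25 (limma adjusted p = 0.00571 and 0.00506). Cd244a was 5.08-fold higher, at 2.35 ± 0.39 (limma adjusted p = 0.0202). Nkg7, Ctsw and Gzmb were 3.64-fold, 3.19-fold and 3.08-fold higher (limma adjusted p from 0.0130 to 0.0443).

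Klrd1 was 6.51-fold higher in low than in negative cells, the largest step of the 10, and missed the threshold (limma adjusted p = 0.0501). Its adjusted p ran from 0.0179 to 0.274 with single arrays left out, and it was called higher in 6 of 8 other fits (limma adjusted p from 0.0074 to 0.0694 over the 8). Gzma and Cd160 differed by 1.25 ± 0.34 and 0.92 ± 0.33 and were not called (limma adjusted p = 0.0867 and 0.1869). The arrays of 9 genes, all but Prf1, did not overlap, against 51.5% of all genes. The median difference was 1.77, against -0.03 over all genes. Without negative replicate 1 none of the 10 was called, without negative replicate 2 only Fcer1g was, and without either low array 3 were, namely Fcer1g, Tyrobp and Cd244a (limma adjusted p of the lost calls from 0.0511 to 0.256). Without either high array 8 were called, Gzma and Klrd1 added.

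**Figure D2:**
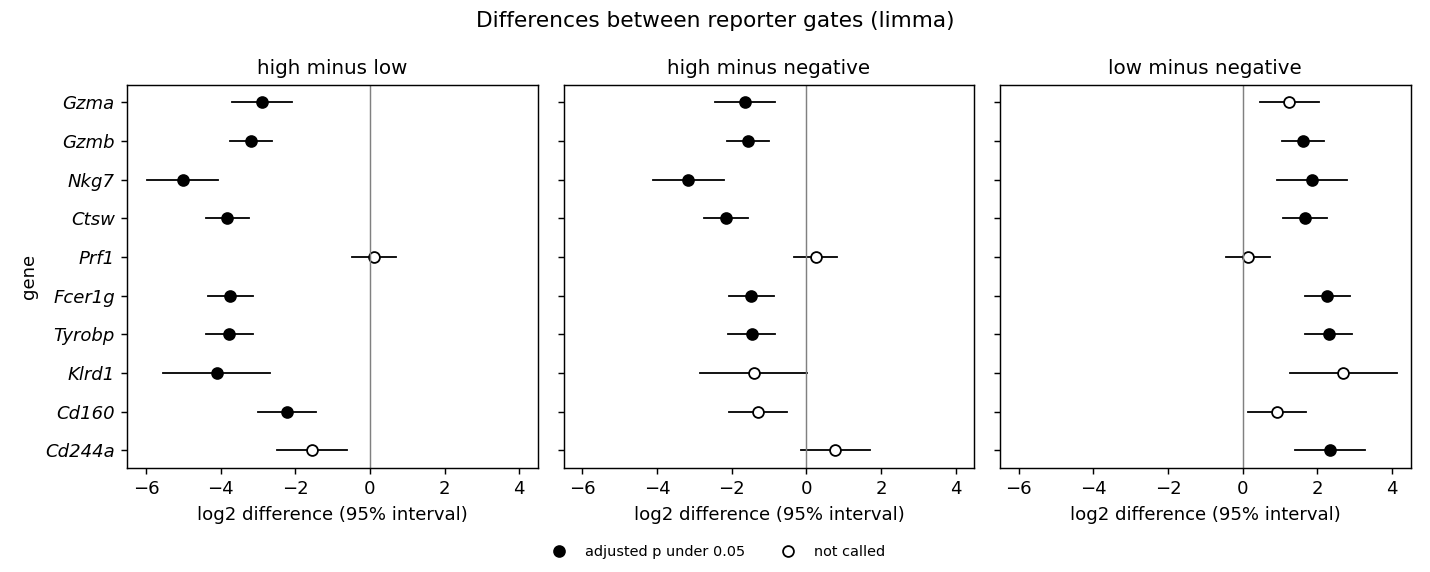
Log2 difference of each of the 10 genes (points) with its 95% interval from limma (lines) for high minus low, high minus negative and low minus negative, with filled points for adjusted p under 0.05. In high minus low 8 genes are filled left of 0, and the interval of Prf1 spans 0 in all panels.

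Of 15 transcription factor and cytokine genes of cytotoxic lymphocytes measured, 8 were called lower in high than in low cells and none higher, with a median difference of -2.14, and 6 to 8 without any single array. Id2, a factor that natural killer and other innate lymphocytes need, had 5.23 and 4.55 in high cells, 8.91 and 8.85 in low cells and 6.73 and 7.25 in negative cells, and fell by 3.99 ± 0.29. Il2rb, the receptor chain through which interleukin-15 acts, had 5.20 and 6.08 in high cells, 9.40 and 9.43 in low cells and 7.10 and 6.91 in negative cells, and fell by 3.77 ± 0.30. Runx3 fell by 2.14 ± 0.26, and Prdm1, which was not above background in high cells, fell by 1.57 or more. The limma adjusted p of these 4 lay between 0.00100 and 0.00708, and the calls held without any single array. At an unadjusted p under 0.05, still 0 of these 15 genes, of the 23 receptor genes, of the 13 adaptor and kinase genes and of the T cell markers were higher in high than in low cells.

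Against negative cells, 3.42% of all genes were called higher in low cells. In the lists, 5 of these 15 genes, 2 of the 20 granule genes, 5 of the 23 receptor genes and 2 of the 13 adaptor and kinase genes were. By limma 0 were called lower, and 0 were lower at an unadjusted p under 0.05. Of the named genes, Sh2d1b1, Il2rb and Fasl showed differences of 2.47 ± 0.34, 2.41 ± 0.30 and 2.09 ± 0.24. The 12 called genes named from these 4 lists had limma adjusted p from 0.00572 to 0.0260. All 12 calls were lost without negative replicate 1 and 10 without negative replicate 2, with Fasl and Sh2d1b1 left. Without low replicate 1 and without low replicate 2, 9 of the 12 were lost in each case, and Fasl and Il2rb stayed in both. In high against negative cells the counts called lower were 2, 2, 1 and 3 in the same order, against 3.35% of all genes. Of the 23 receptor genes 13 ran higher in high cells and 10 lower, with a median difference of 0.06. The calls of Cd96, Id2, Lcp2 and Srgn were lost without either negative array, and that of Cd96 also without high replicate 2.

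T cell genes are given beside the 10 genes, since intraepithelial T cells use many of the same transcripts. Of 13 markers measured, 6 were called lower in high than in low cells and none higher, whichever array was left out. These are Cd3d, Cd3e, Cd3g, Cd8a, Itgae and Cd7. Cd3g, a chain of the T cell receptor complex, fell by 4.31 ± 0.18, and Itgae, the integrin chain CD103 that binds E-cadherin, fell by 4.23 ± 0.21 (limma adjusted p = 0.000308 and 0.000442). Cd8a and Cd7 fell by 3.84 ± 0.19 and 3.63 ± 0.23. The same 6 were called lower in high than in negative cells and higher in low than in negative cells, the calls of Cd3d by a narrow margin (limma adjusted p = 0.0450 and 0.0453). In low against negative cells both Cd3d and Cd3e lost their calls without any single low or negative array (limma adjusted p from 0.0546 to 0.262), and Cd3d also with each array centred on its median and with quantile normalization (adjusted p = 0.0503 and 0.0600). In high against negative cells Cd3e lost its call without either negative array and with quantile normalization (limma adjusted p from 0.0536 to 0.143). There Cd3d lost its call without any single array other than high replicate 2, with only the 4 arrays of both gates, with quantile normalization and with array weights (limma adjusted p from 0.0613 to 0.246).

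The other 7 T cell genes, named after their values were seen, were not called between low and negative cells. Low minus negative was -0.64 for Cd8b1, 0.06 for Cd2, -0.84 for Cd5, -0.96 for Cd6, -0.10 for Cd28, -0.41 for Cd4 and 0.71 for Ccr9. Cd5 and Cd6 were lower in low cells at an unadjusted p under 0.05. Both were called lower with array weights, and Cd6 also with median centring and with the replicate block. High minus low was above 0 for Cd2, Cd5, Cd6, Cd28 and Cd4, from 0.09 to 0.62. It was -0.38 for Cd8b1 and -2.31 for Ccr9, and none of these was called. The summed linear level of the T cell list was 918 and 1119 in high cells, 10305 and 11220 in low cells and 3137 and 3777 in negative cells. For the 10 cytotoxic genes it was 1298 and 1252 in high cells, 12188 and 12632 in low cells and 3314 and 4152 in negative cells. Both sums were highest in low cells and lowest in high cells on every array. The calls of Cd3g, Cd8a, Itgae and Cd7 against negative cells in low cells were lost without negative replicate 1, all but that of Itgae without negative replicate 2, and that of Cd7 without low replicate 2 (limma adjusted p of Cd7 from 0.0510 to 0.0765). In high against negative cells these 4 calls were lost without either negative array.

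Pan-leukocyte genes showed the same order. All 8 were called lower in high than in low cells, with a median difference of -3.60, and 6 to 8 without any single array. Ptprc, the gene of CD45, had 5.11 and 5.72 in high cells, 9.46 and 9.37 in low cells and 7.69 and 7.61 in negative cells, and fell by 4.00 ± 0.24 (limma adjusted p = 0.000633). Arhgdib fell by 4.12 ± 0.26 (limma adjusted p = 0.000711). Lcp1 differed by -1.34 ± 0.21, lost without either low array and without high replicate 2 (limma adjusted p from 0.0592 to 0.113). The summed level was 617 and 788 in high cells, 6261 and 6704 in low cells and 2841 and 3385 in negative cells. In high against negative cells 7 were called lower. These calls were lost without negative replicate 2, and all but that of Cd52 without negative replicate 1. Those of Coro1a and Rac2 were also lost with quantile normalization, with array weights and with only the 4 arrays of both gates. In low against negative cells 3 were called higher, and these calls were lost without any single negative or low array. The part of leukocyte content in the values of the 10 genes was not tested.

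**Figure D3:**
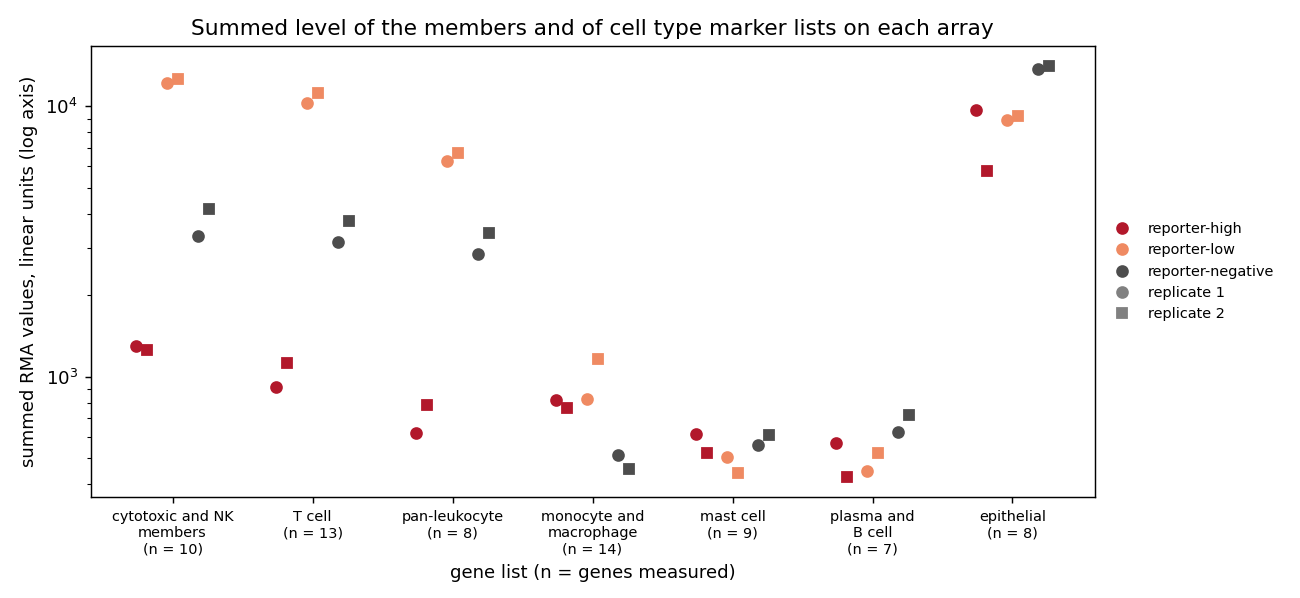
Summed linear level (y axis, log scale) of the 10 cytotoxic genes and of marker lists on each of the 6 arrays, by FVR gate. The cytotoxic, T cell and pan-leukocyte sums are highest on the low arrays and lowest on the high arrays, while the epithelial sum spans 5777 to 14027 and is highest on the negative arrays.

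Epithelial genes did not run that way. Their summed level was 9679 and 5777 in high cells, 8905 and 9203 in low cells and 13724 and 14027 in negative cells. By limma 0 of 8 were called in any comparison, and at an unadjusted p under 0.05 they numbered 0 in high minus low, 5 lower in high minus negative and 3 lower in low minus negative. Without high replicate 1 the counts called were 3 lower, 5 lower and 2 lower in the same order. Without high replicate 2 they were 0, 1 lower and 2 lower. The gates also differed in marker transcripts of crypt cell types. All 7 enteroendocrine markers were called lower in high than in low cells, or 6 without either low array, and all 7 higher in low than in negative cells. All 7 Paneth cell markers were called higher in high than in negative cells and in low than in negative cells. In high minus negative, Itln1 and Lyz1 lost their calls without either negative array, and Mmp7 without negative replicate 2. In low minus negative, Lyz1 lost its call without negative replicate 2 and Nupr1 without low replicate 2.

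The genes with profiles most like the members were sought over the 6 arrays, as the Euclidean distance on the log2 scale between a gene's values, centred on its own mean, and the median profile of the 10 genes. Among genes that are no members, Cd7 was nearest at 0.31, then Dock10 at 0.32, Gimap4 at 0.35, Lcp2 at 0.44, Cd3e at 0.53 and Cd3d at 0.54. Cd7 had log2 values of 8.17 and 8.58 in high cells, 11.92 and 12.09 in low cells and 9.96 and 10.29 in negative cells. Among the members themselves the distance ran from 0.25 for Gzmb through 0.58 for Tyrobp, 0.59 for Fcer1g and 0.71 for Ctsw to 1.28 for Gzma, 1.29 for Cd160, 1.45 for Klrd1 and 2.26 for Nkg7. Cd244a at 2.63 and Prf1 at 3.48 lay farthest. The gaps of Nkg7 between gates were wider than the median ones, in the same order. The 6 points are arrays of 3 gates, so the likeness is mostly that of 3 means, and it is given as a description.

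**Figure D4:**
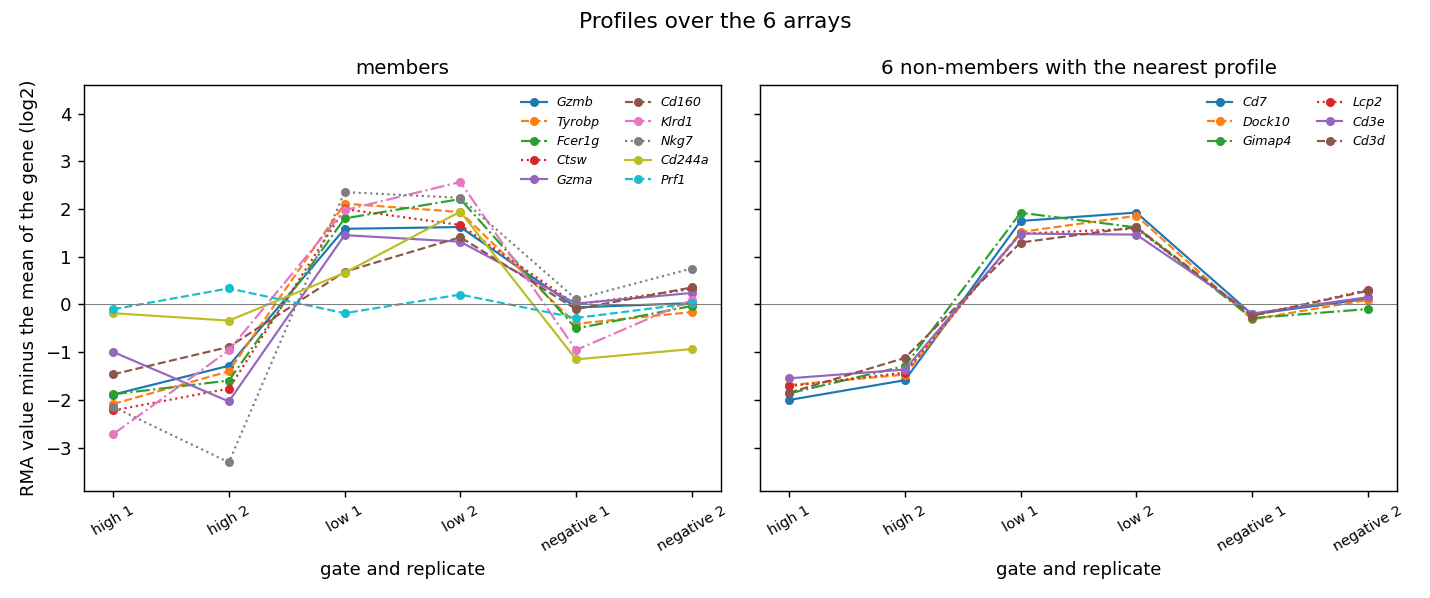
Log2 value minus the gene's mean (y axis) on the 6 arrays for the 10 cytotoxic genes (left) and the 6 nearest other genes (right), with lines that link the values of a gene. Most lines on the left are lowest on the high arrays and highest on the low arrays, as is the median profile (-1.89 on high replicate 1, 1.80 on low replicate 2), while the Prf1 line stays near 0.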

How the data were processed

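Per the submitters' processing notes, the authors used Affymetrix Expression Console (version 1.3.0.187) with RMA, and the deposited values were read as log2 values. RNA was column-extracted with DNase treatment and amplified with a whole-transcript kit, per the labels' protocols. RMA compresses differences near the floor of the signal, and no scanner files were used here. Of 18 samples, the columns of 12 hold no values and were not analysed here.

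Of 35556 probe sets, 21789 had 1 symbol in the platform annotation, 1621 several, and 12146 were not listed. The GRCm38.p6 gene table, used for names, matched 21698 of the first, and 91 kept their array symbol. The brightest probe set by mean stood for each of 999 genes with several, leaving 19938 genes. Background was the 95th percentile of mean values of 1207 olfactory, vomeronasal and trace amine receptor genes. Where no array of the dimmer gate passed it, the change is given against that level, as a bound.

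The 10 genes and all lists were chosen with earlier results of these data known. limma 3.58.1 in R 4.3.3 (lmFit, eBayes) fitted the 3 gates in 1 model with 3 residual degrees of freedom. The spread of each gene was drawn towards a prior from all genes with 3.83 degrees of freedom. Tests were two-sided, with Benjamini-Hochberg adjustment over all genes and calls at an adjusted p under 0.05. The fit was tested on simulated data. Named genes were the 10, up to 4 called genes with the smallest p in low minus negative from each list, and the 6 nearest profiles. Tables and plots used Python 3.11.15, pandas 2.3.3 and matplotlib 3.10.9. Alternatives covered the prior, arrays fitted, dim genes, probe sets, scaling, weights, thresholds, the replicate block and leaving out each array.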

Additional observations from a re-analysis of the deposited data

How the results depend on the processing

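The counts of the 10 genes called lower in high than in low cells lay between 6 and 9 under all alternatives, and between 6 and 8 with single arrays left out. Of those called lower in high than in negative cells, 6 with the deposited values, 2 were left with quantile normalization and 0 at an adjusted p under 0.01, and 0 to 5 with single arrays left out. Of those called higher in low than in negative cells, also 6, 2 were left at an adjusted p under 0.01, and 0 to 8 with single arrays left out. No call turned its direction, and with single arrays left out none could, since the arrays of the called genes did not overlap. Fits without an array of the gate not compared equalled the fit of only the 4 arrays compared, so the alternatives are not all separate checks. Of 480 values of single genes under alternatives, 401 kept their side of the threshold, 60 no longer passed and 19 newly passed. The loss of calls with a single array left out comes with 1 fewer array in a gate of 2, where the lone array is assumed to vary like the others.

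Over all genes, arrays with the same replicate number deviated together only weakly. The correlations of their deviations from the gate means were 0.0788, 0.102 and 0.103. These correlations cannot tell whether animals were shared. The labels give no pairing, so none was fitted in the main model. Gzmb, Prf1, Fcer1g, Klrd1 and Cd160 were brighter on replicate 2 than on replicate 1 in all 3 gates, while the other members changed direction between gates. With the replicate block, 8, 7 and 7 of the 10 genes were called in high minus low, high minus negative and low minus negative, against 8, 6 and 6 without it. With the block Nkg7 lost its low minus negative call (adjusted p = 0.0522), Klrd1 and Cd160 gained one there (0.0074 and 0.0471), and Cd160 gained one in high minus negative (0.0243). The cause of the losses with quantile normalization was not tested. Background is a level over other genes, so values just above it bound little.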

Other observations

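Of 9 measured ligand genes of the receptors, 2 were called lower in low than in negative cells, 2 lower in high than in negative cells and 1 lower in high than in low cells. By limma 0 were called higher, with 2 higher in low than in negative cells at an unadjusted p under 0.05. Clec2h, a C-type lectin gene of the family that Klrb1 receptors read, had log2 values of 8.43 and 8.64 in high cells, 8.83 and 7.72 in low cells and 10.19 and 10.07 in negative cells. Nectin2, a ligand of CD226 and TIGIT, had 6.09 and 5.86 in high cells, 6.22 and 6.04 in low cells and 7.02 and 7.51 in negative cells. Both were highest on the negative arrays. Clec2d, H60b and Cdh1, named after their values were seen, had gate means in the order of the 10 genes, highest in low and lowest in high cells, 3 of the 9. Low minus negative was -1.86 ± 0.35 for Clec2h and -1.14 ± 0.23 for Nectin2 (limma adjusted p = 0.0288 and 0.0366). Both calls were lost without either negative array and without low replicate 2, and that of Nectin2 also without low replicate 1 (adjusted p from 0.0744 to 0.219). High minus negative was -1.29 ± 0.23 for Nectin2 (limma adjusted p = 0.0314), lost without any single array other than high replicate 1. The other calls were those of Clec2e, named after its values were seen, in high against negative cells, and of Clec2d in high against low cells. Clec2e fell by 2.32 there (limma adjusted p = 0.0245), lost without either negative array (adjusted p = 0.167 and 0.160) and with quantile normalization (0.0525). Clec2d, the gene of a ligand of Klrb1 receptors, had 7.93 and 6.65 in high cells, 9.25 and 9.25 in low cells and 8.48 and 7.89 in negative cells, and high minus low was -1.96 (limma adjusted p = 0.0489). Its call was lost without any single array other than high replicate 1, with only the 4 arrays of both gates, with each array centred on its median, with quantile normalization and with array weights (limma adjusted p from 0.0553 to 0.192).

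The mast cell protease gene Mcpt1 fell by 3.06 ± 0.41 on the log2 scale in low against negative cells and the related Mcpt2 fell by 2.92 ± 0.39, while Kit, which crypt cells also use, was higher by 2.07 ± 0.22 (limma adjusted p = 0.00959, 0.00903 and 0.00447). The same 3 genes of 9 were called in high against negative cells, and none in high against low cells, where none passed an unadjusted p under 0.05 either. Among the other mast cell markers, Cpa3, Fcer1a, Ms4a2 and Cma1 were not above background on average. Hdc and Gata2 were above it and were not called in any comparison. Jchain, the joining chain of secreted antibodies, had 3.74 and 3.78 in high cells, 3.93 and 4.22 in low cells and 6.93 and 7.04 in negative cells, and fell by 2.76 or more in low against negative cells (limma adjusted p = 0.000725), which held without any single array. Pou2af1 and Cd79a were also called lower in low cells, and with Jchain they made 3 of 7 genes, against 1 without either negative array and 2 without either low array. In high against negative cells 2 of the 7 were lower, Jchain and Cd79b, and 1 without any single array. Without negative replicate 1 the calls of Mcpt1 and Mcpt2 were lost (adjusted p = 0.0893 and 0.0744), and without negative replicate 2 those of Mcpt1, Mcpt2 and Kit were (adjusted p from 0.0527 to 0.0861). In high against negative cells all 3 were lost without either negative array.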
